A study of Mus musculus with 8 samples.

Results

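Receptors for EGF and HGF and the proteins that bind them in hepatocytes were examined as a set of 8 genes, Egfr, Erbb2, Erbb3, Errfi1, Met, Grb2, Gab1 and Shc1. The genes were chosen by name, and every probe annotated to one of these symbols entered if its signal exceeded the negative control beads (detection p of at most 0.05) in 1 or more of 8 arrays. Of the 8 genes, 4 had such probes, among 9640 genes with an annotated probe in all. Egfr had 5 probes and Met, Grb2 and Gab1 had 1 each, and all 8 probes passed the detection rule. No annotated probe was found for Erbb2, Erbb3, Errfi1 or Shc1, and these 4 genes were not analysed here. The annotation covers only probes of the authors' value table, and all 14408 of its probes with 1 symbol passed the detection rule. That rule therefore removed nothing here, and undetected probes of the 8 genes may be missing from the annotation. Also, 5210 of the 19618 probes tested had no single symbol, so probes of the 4 genes not analysed may be among the unnamed ones.

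The samples were hepatocytes of Gata4 fl/fl mice (strain CD1 x 129S1/SvImJ, aged 2 to 3 months) taken 2 weeks after an intravenous virus. The AAV-Cre group of 4 samples had received AAV8-Tbg-Cre, which removes the floxed part of Gata4, a zinc finger transcription factor, and the AAV-GFP group of 4 samples had received AAV8-Tbg-GFP. Both groups thus carried the floxed alleles and a virus, and the Tbg promoter drives the transgene in hepatocytes. Livers were digested with collagenase, hepatocytes were collected through Percoll, only RNA with an integrity number above 7.5 was used, and the comparison asked which transcripts of adult hepatocytes are under the control of GATA4. Whether every sample is a separate mouse is not stated in the labels, and the p-values therefore cover only the spread among these samples, which may be technical.

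EGFR is the receptor tyrosine kinase for EGF and its relatives, and MET is the receptor tyrosine kinase for HGF. Once bound by ligand, each is phosphorylated on tyrosines that recruit the adaptors GRB2, SHC1 and GAB1, which connect the receptors to the RAS and MAP kinase cascade and to PI3 kinase. ERBB2 and ERBB3 pair with EGFR, and ERRFI1 is an inducible inhibitor of its kinase. In liver both receptors are known for their part in the growth of hepatocytes after tissue loss.

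The start sites of the receptor genes are shown because GATA factors bind DNA directly. In RefSeq (mouse build GRCm38.p6), Egfr lies on chromosome 11 from 16752203 to 16913907 and Met on chromosome 6 from 17463349 to 17573980. The 250 bases before 1 annotated transcript start of each, on the plus strand, are chr11:16751953-16752202 for Egfr and chr6:17463707-17463956 for Met. For Met that start lies inside the gene's outer bounds. The windows read 5′ to 3′ as follows, in lower case throughout since capitals were kept for matches to a GATA motif and none was found.
Egfr: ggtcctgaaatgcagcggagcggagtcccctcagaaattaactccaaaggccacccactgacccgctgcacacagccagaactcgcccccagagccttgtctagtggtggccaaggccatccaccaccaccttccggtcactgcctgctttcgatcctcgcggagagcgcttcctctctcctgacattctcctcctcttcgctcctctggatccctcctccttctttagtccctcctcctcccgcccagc
Met: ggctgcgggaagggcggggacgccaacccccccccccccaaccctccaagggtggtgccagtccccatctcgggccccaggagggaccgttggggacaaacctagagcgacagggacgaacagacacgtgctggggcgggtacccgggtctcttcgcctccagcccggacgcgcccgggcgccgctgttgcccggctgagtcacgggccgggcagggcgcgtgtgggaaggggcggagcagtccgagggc
The motif searched was AGATAA, in which the first base could also be T and the last also G, on both strands, and matches could overlap. It was found in 26.5% of 32851 such windows, in 0 of the 6 windows of the 4 measured genes, and in 1 of the 11 windows of the 7 listed genes in the table, an upstream start of Errfi1 with 2 matches. GC content was 60.8% for Egfr and 74% for Met, against a median of 52.4% over all windows. These letters were looked for in these windows only, and binding was not measured here. The paper's ChIP-seq assigns a GATA4 occupied site to Egfr, with ChIP-qPCR beside it, in an older genome build. Where that site lies relative to the window above was not examined.

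Between 14788 and 16387 of 45281 probes were detected per array, 14788 to 16263 in AAV-Cre and 15406 to 16387 in AAV-GFP. There is no sequencing depth on bead arrays, and precision is limited by how many were run. The Gata4 probe lay near background, with 6.28, 5.85, 5.72 and 5.84 in AAV-Cre replicates 1 to 4, against 5.31, 5.37, 5.02 and 5.10 in AAV-GFP replicates 1 to 4 (normalized log2 signal), and was detected in AAV-Cre replicate 1 alone. Its position relative to the excised part is unknown here, so it checks nothing about excision. Xist (ILMN_2475156) reached 13.33 and 13.78 in AAV-GFP replicates 1 and 4, against 5.07 to 5.33 in the other 6 arrays. Uty, another sex chromosome gene, had 6.08 and 5.93 in AAV-GFP replicates 1 and 4, against 7.09 to 7.56 in the other 6 arrays. Kdm5d, a further one, was undetected in AAV-GFP replicates 1 and 4 and in AAV-Cre replicates 3 and 4. The labels give no sex. AAV-Cre replicates 3 and 4 had the fewest detected probes, 14788 and 15067. Results were therefore also computed without each of these pairs of arrays. Hepatocyte markers were present, with F10 at 15.15 to 15.50 in AAV-Cre and 15.13 to 15.38 in AAV-GFP.

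No probe of the EGF and HGF receptor genes passed the test between AAV-Cre and AAV-GFP. All 5 Egfr probes and the Met probe had a higher mean in AAV-Cre, by 0.33 to 0.91 on the log2 scale for Egfr and by 0.50 for Met, while Grb2 (0.049) and Gab1 (-0.13) differed by less than their standard errors. Over all 19618 probes tested with limma, 1 probe, or 0.0051%, was called at an adjusted p under 0.25, the false discovery rate used in the study's methods, and it was lower in AAV-Cre. At an unadjusted p under 0.05, 5.2% of probes were higher and 4.26% lower in AAV-Cre, and 1 of the 8 probes here was higher and 0 were lower. The higher ones made up 55.0% of all probes at that p, but 38.2% under cyclic loess normalization, a setting in which the Egfr and Met probes stayed higher in AAV-Cre. All AAV-Cre arrays lay above all AAV-GFP arrays for 3.12% of probes and below them for 1.74%, and for 0 of the 8 probes here did the groups separate. The median log2 difference was 0.044 over all probes tested, of which 56.4% were higher in AAV-Cre, against 7 of 8 here, 5 of them from 1 gene.

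**Figure D1:**
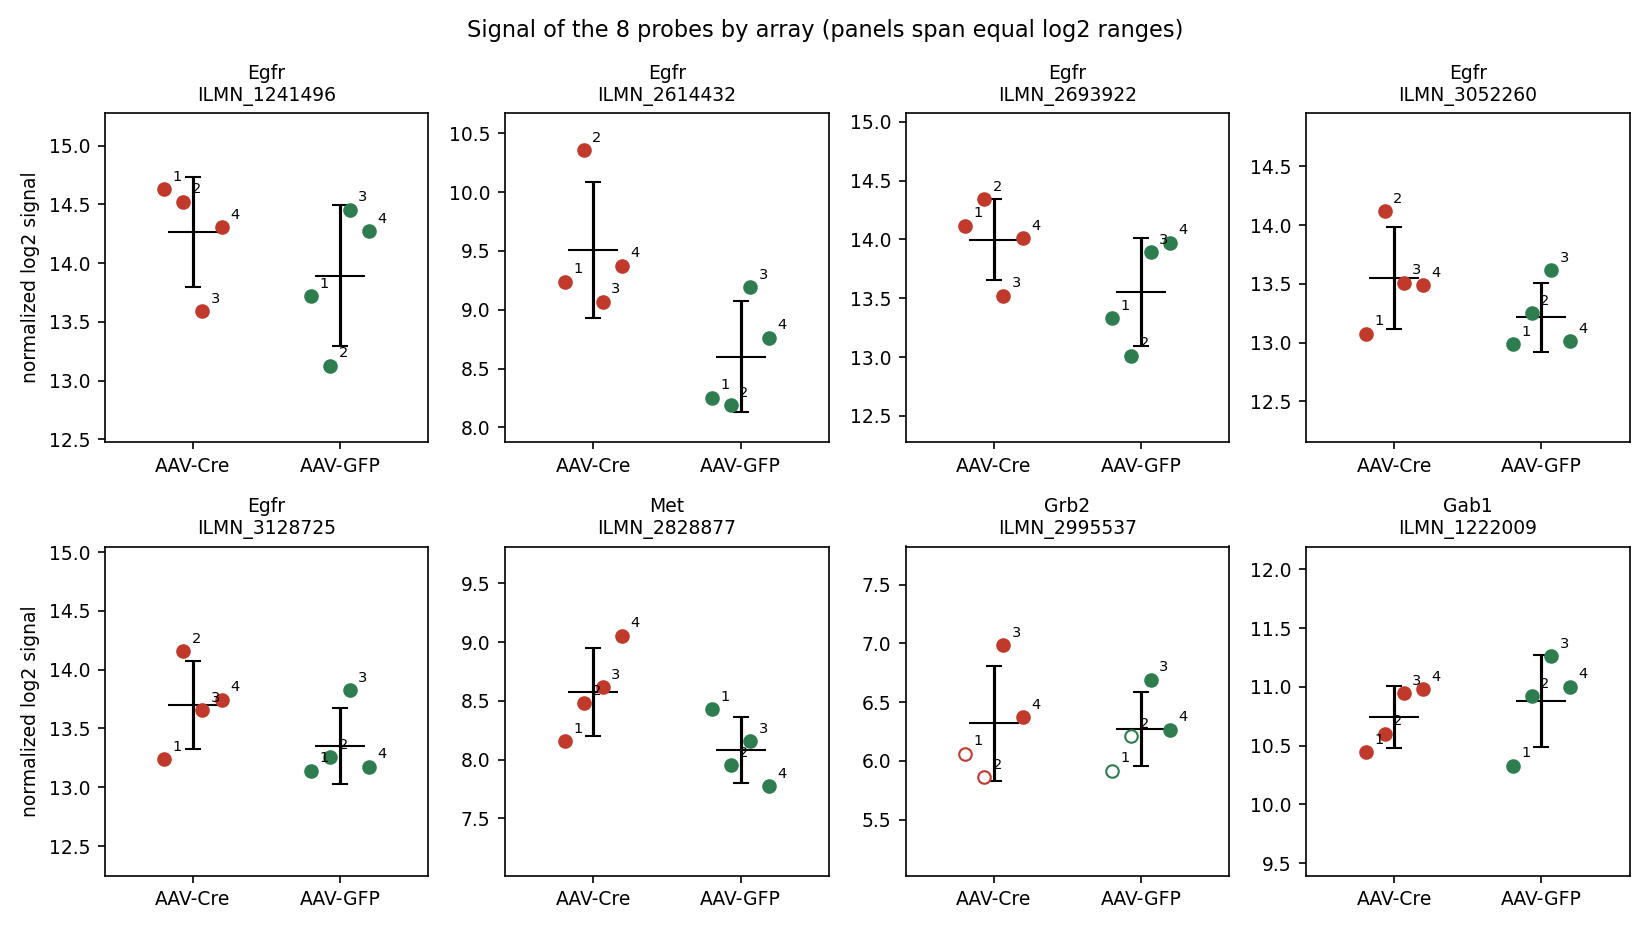
Normalized log2 signal (y axis, the same span in every panel) of the 8 probes in 4 AAV-Cre arrays (red, left) and 4 AAV-GFP arrays (green, right). Numbers are replicates, open circles mark arrays without detection, horizontal bars and whiskers are mean ± SD, and the groups overlap in every panel.

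Egfr was detected in all 8 arrays by each of its 5 probes. The probes fall under separate transcript records in the platform annotation. ILMN_2614432 and ILMN_2693922 belong to NM_207655, the record of the full-length receptor. ILMN_3052260 and ILMN_3128725 belong to NM_007912, the record of a shorter transcript whose product ends before the membrane-spanning segment. ILMN_1241496 had no record, and the place of each probe within its transcript is unknown here.

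Of the full-length record, ILMN_2614432 had 9.24, 10.36, 9.07 and 9.37 in AAV-Cre replicates 1 to 4, against 8.25, 8.19, 9.19 and 8.76 in AAV-GFP replicates 1 to 4 (normalized log2 signal). AAV-Cre replicate 2 stood highest and 3 of 4 AAV-Cre arrays exceeded every AAV-GFP array, but AAV-GFP replicate 3 exceeded AAV-Cre replicate 3, so the groups overlapped. It averaged 9.51 ± 0.58 in AAV-Cre and 8.60 ± 0.47 in AAV-GFP (SD, n = 4 each). The log2 difference was 0.91 ± 0.33 (SE), or 1.88-fold, with a 95% interval of 0.17 to 1.65. The unadjusted p in limma was 0.0211 and the adjusted p 0.518. Without AAV-Cre replicate 2 the difference was 0.63. Without background correction it was 0.60, more than 1.5 times smaller than in the main setting. Without both arrays with Xist signal it was 0.82, and its unadjusted p in limma was 0.103. No member probe had an unadjusted p under 0.05 in that last setting.

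The other probe of that record, ILMN_2693922, had 14.12, 14.34, 13.52 and 14.01 in AAV-Cre replicates 1 to 4, against 13.33, 13.01, 13.89 and 13.97 in AAV-GFP replicates 1 to 4. Again 3 of 4 AAV-Cre arrays lay above every AAV-GFP array, and here AAV-Cre replicate 3 was the low one. The log2 difference was 0.45 ± 0.26 (SE), 1.36-fold, with an adjusted p in limma of 0.544. It was 0.26 without AAV-GFP replicate 2, the lowest array of the control group.

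The probe without a record, ILMN_1241496, had 14.63, 14.52, 13.59 and 14.31 in AAV-Cre replicates 1 to 4, against 13.72, 13.13, 14.45 and 14.27 in AAV-GFP replicates 1 to 4. AAV-Cre replicate 3 and AAV-GFP replicate 2 were the low arrays of their groups. The log2 difference of 0.37 ± 0.33 (SE) had an adjusted p in limma of 0.673, and it was 0.11 without AAV-GFP replicate 2.

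Of the shorter record, ILMN_3052260 had 13.08, 14.12, 13.51 and 13.49 in AAV-Cre replicates 1 to 4, against 12.99, 13.25, 13.62 and 13.01 in AAV-GFP replicates 1 to 4. ILMN_3128725 had 13.24, 14.16, 13.66 and 13.75 in AAV-Cre replicates 1 to 4, against 13.14, 13.26, 13.83 and 13.17 in AAV-GFP replicates 1 to 4. In both probes AAV-Cre replicate 2 was the highest array and AAV-Cre replicate 1 the lowest of its group, and AAV-GFP replicate 3 stood above the other 3 control arrays. The log2 differences were 0.33 ± 0.24 and 0.35 ± 0.23 (SE), with adjusted p of 0.604 and 0.573 in limma. Without AAV-Cre replicate 2 they were 0.14 and 0.20, and without both arrays with Xist signal 0.12 and 0.16.

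**Figure D2:**
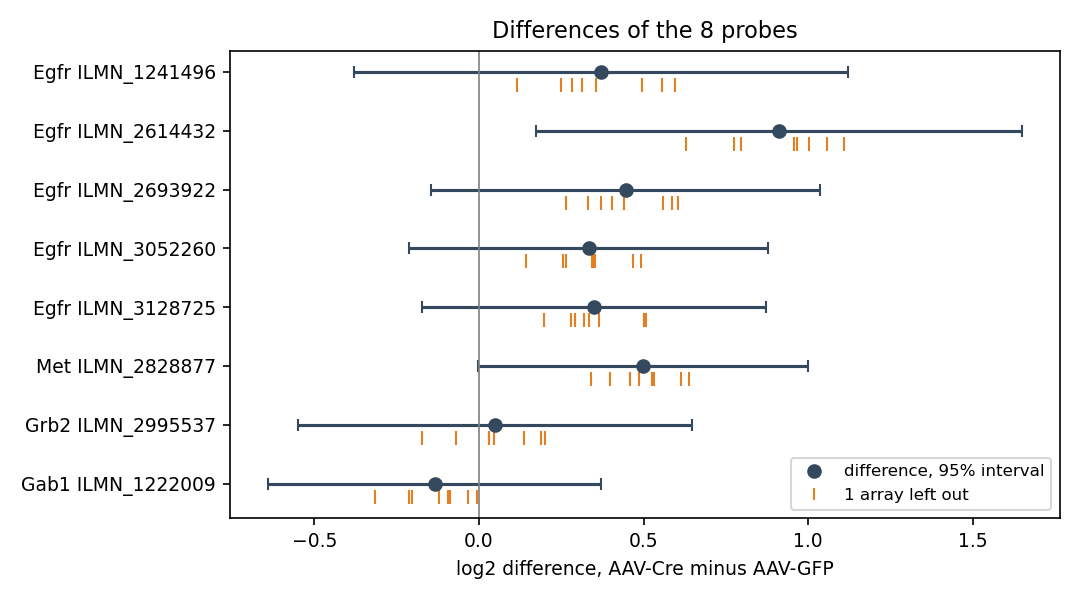
Log2 difference between AAV-Cre and AAV-GFP (x axis, AAV-Cre minus AAV-GFP) for the 8 probes (y axis), with 95% intervals of the limma fit as whiskers. Orange ticks give the difference with 1 array left out, and they lie above 0 for the Egfr and Met probes, on both sides of 0 for Grb2 and below 0 for Gab1.

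Whether the 5 Egfr probes differed from each other in their response was tested within arrays, as the log2 signal of a probe minus that of another. The group difference of this value was 0.016 to 0.58 in size over the 10 pairs. In an exact permutation test over 70 label assignments (two-sided, smallest possible p 0.0286), 0 of 10 pairs passed an adjusted p of 0.05, and the adjusted p ran between 0.286 and 0.943. At least 6 pairs would have to reach the smallest p for any to pass, since a lone pair there would have an adjusted p of 0.286, so the result does not show that the probes responded alike. The larger values all involved ILMN_2614432, whose difference exceeded that of ILMN_3052260 by 0.58 and that of ILMN_3128725 by 0.56 (exact permutation p of 0.0857 and 0.0571). The probes ILMN_2693922 and ILMN_3052260, from the full-length and the shorter record, differed by 0.11 in their response (exact permutation p of 0.743).

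The Egfr signal also varied between arrays of the same group. All 5 probes were above their own mean in AAV-Cre replicates 2 and 4 and in AAV-GFP replicate 3, and 0 of 5 in AAV-GFP replicates 1 and 2. AAV-Cre replicates 1 and 3 had 3 of 5 above, and AAV-GFP replicate 4 had 2 of 5. The split within AAV-Cre replicate 1 followed the records. There the full-length record probes stood 0.34 and 0.18 above their means and the shorter record probes 0.31 and 0.28 below theirs. The splits within AAV-Cre replicate 3 and AAV-GFP replicate 4 did not. In both of these arrays the full-length record probes lay on opposite sides of their means.

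**Figure D3:**
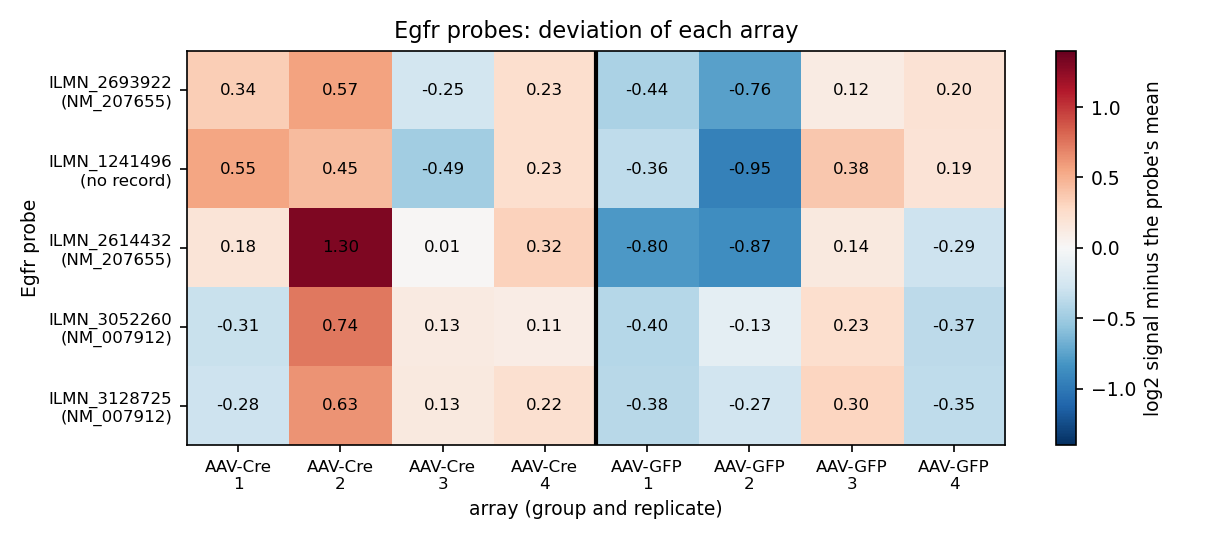
Deviation of the log2 signal (colour and printed value) from the mean of each Egfr probe (y axis, with its transcript record) in each array (x axis, AAV-Cre left of the line and AAV-GFP right of it). AAV-Cre replicates 2 and 4 and AAV-GFP replicate 3 are positive in all 5 rows and AAV-GFP replicates 1 and 2 negative in all 5.

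The 2 probes of the shorter record followed each other closely over the 8 arrays, with Pearson r = 0.98 and Spearman rho = 0.98 (permutation p of 7.44e-05 and 0.000397, adjusted over the 10 pairs 0.000744 and 0.00397). ILMN_1241496, without a record, followed ILMN_2693922 of the full-length record, with r = 0.95 and rho = 0.88 (permutation p of 0.00159 and 0.00724, adjusted 0.00794 and 0.0241). Between ILMN_2693922 and the shorter record probes r was 0.45 and 0.53 and rho 0.36 and 0.43, with adjusted permutation p of 0.335 and 0.256 for r and 0.433 and 0.427 for rho. ILMN_2614432 correlated with both sets, with r = 0.86 to ILMN_2693922 and r = 0.82 and 0.84 to the shorter record probes (adjusted permutation p of 0.0158, 0.0287 and 0.0158), and rho of 0.90, 0.62 and 0.69 (adjusted permutation p of 0.0228, 0.192 and 0.139). Its relation to ILMN_1241496 was r = 0.72 and rho = 0.81 (adjusted permutation p of 0.0747 and 0.0544), and ILMN_1241496 had r of 0.28 and 0.39 and rho of 0.29 and 0.36 to the shorter record probes (adjusted permutation p of 0.495 and 0.361 for r and 0.501 and 0.433 for rho).

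For each pair, r was also computed without the 2 arrays farthest from the median of its lower-numbered probe, so the arrays left out could differ between pairs. It was then 0.96 within the shorter record and 0.91 between ILMN_1241496 and ILMN_2693922. For ILMN_2614432 it was 0.72 to ILMN_2693922 and 0.67 and 0.69 to the shorter record probes, and 0.74 to ILMN_1241496. Between ILMN_2693922 and the shorter record probes it was 0.28 and 0.23, and between ILMN_1241496 and the same probes 0.48 and 0.48. Within the AAV-Cre group, r between the shorter record probes was 0.98 and within the AAV-GFP group 0.96. Between ILMN_1241496 and ILMN_2693922 it was 0.94 in AAV-Cre and 0.97 in AAV-GFP. The probes share arrays and labelling, and whether the difference between these correlations exceeds chance was not tested.

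**Figure D4:**
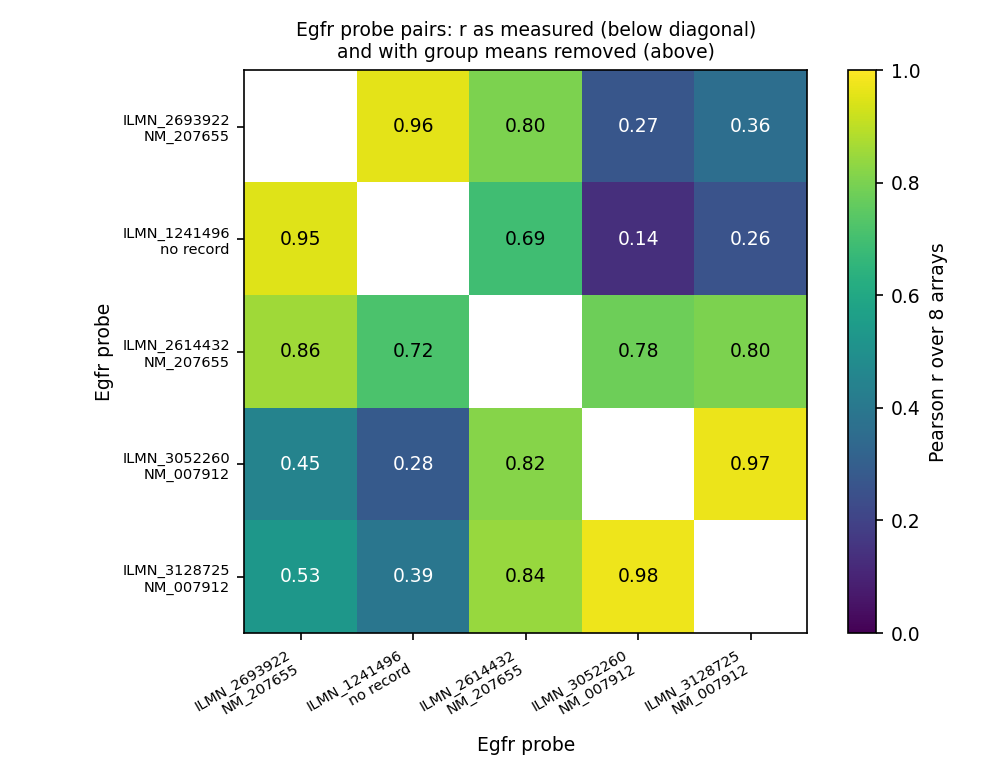
Pearson r over 8 arrays between the 5 Egfr probes (both axes, with their transcript record), as measured below the diagonal and with group means removed above it. The shorter record pair has r of 0.98 and 0.97 and the pair of ILMN_1241496 and ILMN_2693922 has 0.95 and 0.96, while these pairs correlate with each other at 0.53 or less.

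Met (ILMN_2828877) had 8.16, 8.48, 8.62 and 9.05 in AAV-Cre replicates 1 to 4, against 8.43, 7.95, 8.16 and 7.77 in AAV-GFP replicates 1 to 4 (normalized log2 signal). In this receptor for HGF, 3 of 4 AAV-Cre arrays exceeded every AAV-GFP array and AAV-Cre replicate 1 lay among the controls. The means were 8.58 ± 0.37 in AAV-Cre and 8.08 ± 0.28 in AAV-GFP (SD, n = 4 each). They differed by 0.50 ± 0.22 (SE) on the log2 scale, or 1.41-fold, with an unadjusted p of 0.0508 and an adjusted p of 0.518 in limma. It was 0.34 when AAV-Cre replicate 4 was left out and 0.24 when replicate 3 was left out with it. Met was highest in AAV-Cre replicate 4, whereas 4 of the 5 Egfr probes were highest in AAV-Cre replicate 2.

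Gab1 (ILMN_1222009), a docking protein that binds MET directly, had 10.44, 10.60, 10.95 and 10.98 in AAV-Cre replicates 1 to 4, against 10.33, 10.92, 11.26 and 11.001 in AAV-GFP replicates 1 to 4. The groups lay within the same range, with a log2 difference of -0.13 ± 0.22 (SE), a 95% interval of -0.64 to 0.37 and an adjusted p of 0.838 in limma. With 1 array left out it ran between -0.32 and -0.0069.

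Grb2 (ILMN_2995537), the adaptor that brings the RAS activator SOS to the receptors, was near background. Its signal was 6.06, 5.86, 6.98 and 6.37 in AAV-Cre replicates 1 to 4, against 5.92, 6.21, 6.69 and 6.27 in AAV-GFP replicates 1 to 4, and 2 arrays of each group passed detection. The log2 difference was 0.049 ± 0.26 (SE), with a 95% interval of -0.55 to 0.65 and an adjusted p of 0.955 in limma, and its sign turned under cyclic loess normalization (-0.027) and without AAV-GFP replicate 1 (-0.069) or AAV-Cre replicate 3 (-0.17).

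Most marker probes of other liver cells had a higher mean in AAV-Cre, as the Egfr and Met probes did, but none was called. Over all probes tested, 56.4% were higher in AAV-Cre, and 5.2% were higher at an unadjusted p under 0.05 in limma. Sinusoidal endothelial markers were higher in AAV-Cre for 11 of 11 probes (median 0.45, 3 at an unadjusted p under 0.05) and Kupffer and macrophage markers for 8 of 9 (median 0.49, 4 at an unadjusted p under 0.05), against 2 of 7 for hepatocyte markers (median -0.16). Of the listed genes, 8 of 9 endothelial and 8 of 10 Kupffer markers were detected. Stellate and fibroblast markers were higher for 5 of 7 probes, cholangiocyte markers for 3 of 3 and Cd74, the only measured gene of the lymphocyte list, for 2 of 2. The summed linear signal of the endothelial list was 6579 to 9618 in AAV-Cre and 4427 to 9125 in AAV-GFP. That of the Kupffer list was 1842 to 2724 in AAV-Cre and 1148 to 1977 in AAV-GFP. In such bulk samples, more cells of a type and more RNA per cell cannot be told apart, and the part of these cells in the Egfr and Met values was not tested.

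The genes whose signal was most like each receptor probe over the 8 arrays were taken among 10401 named probes detected in all arrays, as a description. With so many candidates and 8 arrays, the highest r is large by selection and shows no relation by itself. ILMN_1241496 was closest to Zbtb20, a zinc finger repressor known in liver (r = 0.95), and ILMN_2693922 to Irf9, a subunit of the interferon response factor complex (r = 0.94). The shorter record probes ILMN_3052260 and ILMN_3128725 shared Sec61a1, a subunit of the channel that passes new proteins into the endoplasmic reticulum (r = 0.94 and 0.95), and ILMN_3052260 was closest to Creld2, a protein of the same compartment (r = 0.96). The remaining close genes were Scamp4 for ILMN_3052260 (r = 0.95) and Glmp and Ercc6l2 for ILMN_3128725 (r = 0.93 each). ILMN_2614432 was closest to Aph1a, a subunit of gamma-secretase (r = 0.94). Met was closest to Arid4a (r = 0.98), a chromatin-binding protein.

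Around these receptors, 95 of 149 genes in 10 lists were measured by 146 probes. None of the 146 was called. An unadjusted p under 0.05 was reached by 8 probes that were higher in AAV-Cre and by 5 that were lower, against backgrounds of 5.2% and 4.26%, and the median log2 difference was 0.039, against 0.044 over all probes tested. The groups did not overlap for 1 probe that was higher in AAV-Cre and 3 that were lower, against 3.12% and 1.74% of all probes tested. Of the lists, ubiquitin ligases and endocytosis proteins, which remove activated receptors from the cell surface, had the highest median (0.23). It tied to 2 decimals with the partner receptors (0.23), and immediate early targets had the lowest (-0.64). Genes with several probes count more than once in these medians. With only the brightest probe of each gene they were 0.28, 0.23 and -0.39. The median then turned from -0.15 to 0.18 for EGF family ligands and from -0.033 to 0.10 for feedback inhibitors.

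**Figure D5:**
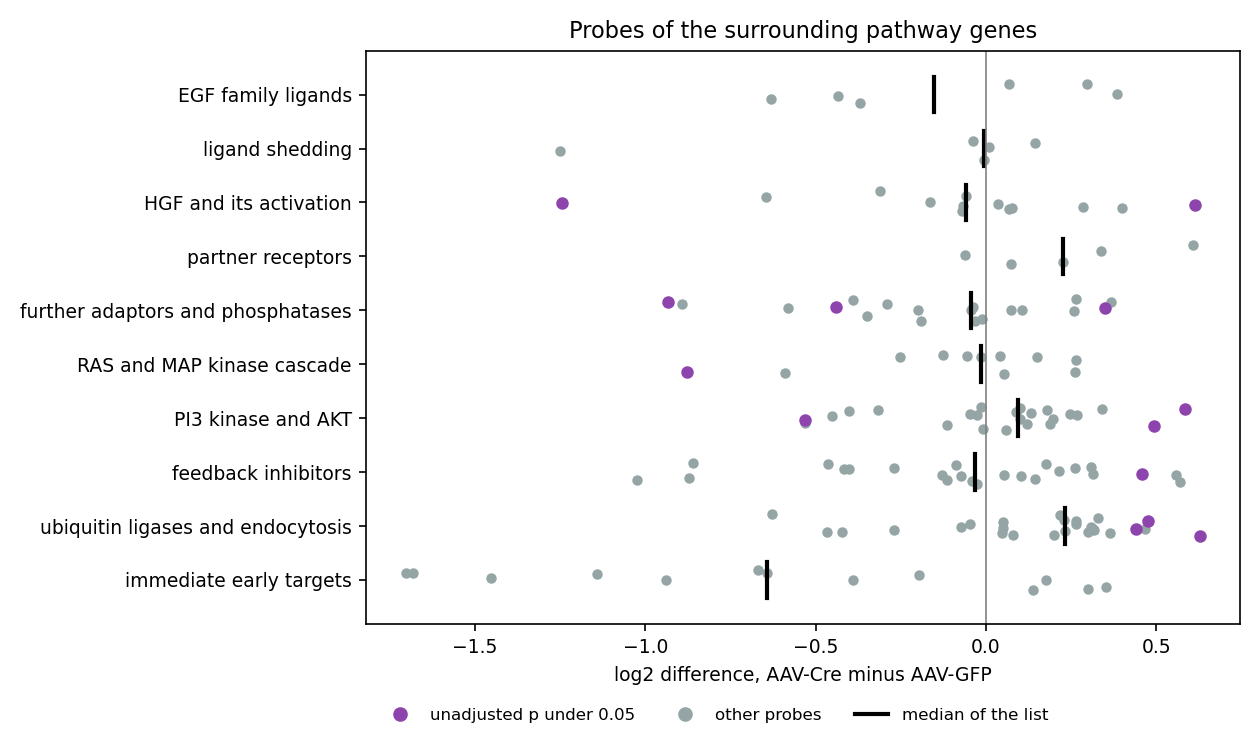
Log2 difference between AAV-Cre and AAV-GFP (x axis, AAV-Cre minus AAV-GFP) for the 146 probes of 10 lists of pathway genes (y axis). Purple points have an unadjusted p under 0.05, grey points do not, and black bars are list medians, which run between -0.64 for immediate early targets and 0.23 for ubiquitin ligases and endocytosis.

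Of 11 EGF family ligands 4 were measured, and 0 of their 6 probes had an unadjusted p under 0.05. The median was -0.15 over the probes and 0.18 with only the brightest probe of each gene. Egf itself was near background, with 1 detected array in AAV-Cre and 1 in AAV-GFP for ILMN_2684104. Its other probe, ILMN_1240039, had 5.93 to 6.95 in AAV-Cre and 6.32 to 6.53 in AAV-GFP, and passed detection in every array except AAV-Cre replicate 4. Btc, betacellulin, had a log2 difference of 0.38 ± 0.31 (SE), which was 0.20 to 0.62 with 1 array left out. Nrg4, a ligand of ERBB4, had -0.63 ± 0.67 (SE), which was -0.19 without AAV-GFP replicate 3 and -1.36 without AAV-GFP replicate 1, and its other probe had -0.43. Hgf, which stellate cells rather than hepatocytes are known to make, was detected in AAV-GFP replicate 2 alone, at 5.31 to 5.89 in AAV-Cre and 5.36 to 6.33 in AAV-GFP. Among the ligand sheddases, Adam9 had 9.69, 9.997, 7.44 and 7.33 in AAV-Cre replicates 1 to 4, against 10.05, 9.91, 9.93 and 9.58 in AAV-GFP replicates 1 to 4. Its log2 difference was -1.25 ± 0.60 (SE) with an adjusted p of 0.518 in limma, and -0.021 without AAV-Cre replicates 3 and 4, the low arrays.

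In the HGF and activation list, with 8 of 14 genes measured, an unadjusted p under 0.05 was reached by 1 of 13 probes upward and by 1 downward. Mst1, the HGF-like ligand made by hepatocytes, had 6.28, 6.94, 6.55 and 6.86 in AAV-Cre replicates 1 to 4, against 5.88, 6.48, 5.94 and 5.86 in AAV-GFP replicates 1 to 4, a log2 difference of 0.61 ± 0.21 (SE, unadjusted p of 0.0156, adjusted p of 0.518 in limma). It was detected in 4 of 4 AAV-Cre and 1 of 4 AAV-GFP arrays. Only AAV-GFP replicate 2 reached into the AAV-Cre range. Serpina5, an inhibitor of the HGF activator protease, was not well above background in any AAV-Cre array (5.26 to 5.62) and was detected in 2 of 4 AAV-GFP arrays (5.76 to 8.00). Its mean over all AAV-GFP arrays was 1.35-fold the mean of the lowest detected signal per AAV-Cre array (adjusted p of 0.518 in limma). This ratio is a bound set by the detection limit and carries no sampling error. That bound rested on AAV-GFP replicate 3, the brightest array, and without it none above 1 was left, with a log2 difference of -0.80. The 4 probes of Plg, the plasminogen precursor, disagreed, at 0.40 ± 0.21 (SE) for ILMN_2589024, -0.65 ± 0.34 (SE) for ILMN_2593515, and 0.069 and 0.078 for the others.

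Partner receptors, measured for 5 of 10 genes, had 0 of 5 probes at an unadjusted p under 0.05. Axl, a receptor tyrosine kinase known mainly in macrophages and endothelium, had a log2 difference of 0.61 ± 0.32 (SE), which was 0.34 without AAV-GFP replicate 1. Plxnb2, a semaphorin receptor of the family that couples to MET, had 0.075 ± 0.14 (SE). Of the 19 probes of further adaptors and phosphatases, 1 was higher and 2 were lower at an unadjusted p under 0.05. Ptpn11, the phosphatase SHP2 that binds GAB1, had a log2 difference of 0.35 ± 0.15 (SE, unadjusted p of 0.0453, adjusted p of 0.518 in limma). Sos2, a RAS exchange factor carried by GRB2, had 8.39, 8.31, 7.26 and 7.30 in AAV-Cre replicates 1 to 4, against 8.45, 8.95, 8.86 and 8.74 in AAV-GFP replicates 1 to 4. The groups did not overlap and the log2 difference was -0.93 ± 0.29 (SE, unadjusted p of 0.0109, adjusted p of 0.518 in limma), but AAV-Cre replicates 3 and 4 were the low arrays and without them it was -0.40.

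In the RAS and MAP kinase cascade, 7 of 16 genes were measured, and 1 of 11 probes had an unadjusted p under 0.05. This was Map2k1, the kinase MEK1, with 6.32, 6.03, 5.10 and 5.26 in AAV-Cre replicates 1 to 4, against 6.96, 6.49, 6.68 and 6.09 in AAV-GFP replicates 1 to 4. It was detected in 1 of 4 AAV-Cre and 4 of 4 AAV-GFP arrays. The log2 difference of -0.88 ± 0.31 (SE, adjusted p of 0.518 in limma) was -0.38 without AAV-Cre replicates 3 and 4, again the low arrays. Map2k2, the kinase MEK2, differed by 0.26 ± 0.18 (SE), and its other probe had the opposite sign. In the PI3 kinase and AKT list, with 12 of 18 genes and 24 probes, an unadjusted p under 0.05 was reached by 2 higher probes and 1 lower one. The regulatory subunit genes Pik3r2 and Pik3r3 had log2 differences of 0.49 ± 0.17 and 0.59 ± 0.23 and Rictor, a subunit of the mTOR complex that phosphorylates AKT, had -0.53 ± 0.20 (SE, adjusted p of 0.518 for each in limma). Without AAV-GFP replicates 1 and 4 the Pik3r2 value was 0.31, and the Rictor value was -0.29 without AAV-Cre replicates 3 and 4. The other Rictor probes had -0.45 and -0.0073.

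Feedback inhibitors had 1 of 24 probes at an unadjusted p under 0.05, Ptpn2 (0.46 ± 0.19), a tyrosine phosphatase that acts on EGFR and MET. Probes of the MAP kinase phosphatase gene Dusp6 disagreed, at 0.56, 0.10 and -1.03. Lrig1, a membrane protein that lowers EGFR, had a log2 difference of 0.26 ± 0.18 (SE, unadjusted p of 0.189). In the ubiquitin ligases and endocytosis list, 16 of 18 genes were measured, 20 of 26 probes were higher in AAV-Cre, against 56.4% of all probes tested, and 3 had an unadjusted p under 0.05, all higher. Rab7, the late endosome GTPase, had 10.15, 10.64, 10.73 and 10.70 in AAV-Cre replicates 1 to 4, against 9.95, 10.15, 10.21 and 9.99 in AAV-GFP replicates 1 to 4 (log2 difference 0.48 ± 0.17, SE, adjusted p of 0.518 in limma). AAV-Cre replicate 1 was level with the upper control arrays. The difference was 0.32 without AAV-Cre replicates 3 and 4, and the other Rab7 probes had 0.33 and -0.047. Rnf41, the ligase of ERBB3, differed by 0.44 ± 0.19 (SE), and its other probe had the opposite sign. Epn1, an endocytic adaptor, was detected in 2 of 4 AAV-Cre and 0 of 4 AAV-GFP arrays. Its AAV-Cre mean was 1.07-fold the mean of the lowest detected signal per AAV-GFP array (adjusted p of 0.518 in limma). This bound carries no sampling error and fell below 1 without AAV-Cre replicate 2. The median of this list was 0.13 under cyclic loess and 0.13 without AAV-GFP replicates 1 and 4.

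The list of immediate early targets of receptor signalling had 4 of 13 probes with a positive difference and 0 of 13 at an unadjusted p under 0.05. It also held Ccnd1, which is not strictly an immediate early gene. The Ccnd1 probes had log2 differences of -1.70, -1.68 and -1.14. Ccnd1, the G1 cyclin gene, had 9.11, 10.31, 8.63 and 9.005 in AAV-Cre replicates 1 to 4, against 11.65, 8.78, 10.04 and 13.41 in AAV-GFP replicates 1 to 4 (ILMN_2601471). The 2 high arrays were those with Xist signal, and the log2 difference of -1.70 ± 0.88 (SE) was -0.14 without them and -0.89 without AAV-GFP replicate 4 alone. Egr1, a zinc finger gene induced by MAP kinase signalling, had 10.93, 12.41, 10.03 and 10.79 in AAV-Cre replicates 1 to 4, against 11.68, 12.11, 11.41 and 14.76 in AAV-GFP replicates 1 to 4. Its log2 difference of -1.45 ± 0.76 (SE) was -0.72 without AAV-GFP replicates 1 and 4 and -0.70 without replicate 4 alone, and the list median of -0.64 was -0.12. The part of the Xist difference in these values was not tested.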

How the data were processed

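Total RNA of 8 hepatocyte samples was amplified, labelled with biotin and put on 1 Illumina MouseWG-6 v2 bead array each by the authors. The deposited non-normalized table holds each probe's linear signal intensity, without background subtraction or normalization between arrays, and a deposited detection p-value against the negative control beads exported from GenomeStudio software, of which no version is stated. The authors' quantile-normalized intensity table, used as an alternative, holds 16820 probes. It matched a quantile normalization within 0.0389 in log2 units, was linear and not centred, and had column medians of 708.1 to 709.1.

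Intensities went through neqc of limma 3.58.1 (R 4.3.3), which estimates background from the detection p-values, applies normexp and an offset of 16, normalizes by quantiles and takes log2. Of 45281 probes, 19618 with a detection p-value of at most 0.05 in 1 or more arrays were fitted by lmFit and eBayes without covariates, with Benjamini-Hochberg adjustment over all of them. Every log2 difference is AAV-Cre minus AAV-GFP. Standard errors of these differences had a median of 0.21. Of the tested probes 14408 had 1 gene symbol in the array's annotation (possibly old), and 5210, of which 7 had several symbols, were tested unnamed. Gene identifiers of 14394 were in the RefSeq gene table and 0 symbols changed. Each probe of a gene was kept separately.

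The member genes and lists were chosen with earlier results of these data known. Named were all member probes, up to 4 genes per list by the smallest p, some of the 3 genes most like each Egfr and Met probe, Gata4, Xist, Uty and defining markers. Hgf, Lrig1 and the Dusp6 probes were added for their role in the pathway after their values were seen. The limma and SAM scripts were tested on simulated data. Tried as alternatives were other background, offset and normalization settings, the authors' table, other detection filters, 1 probe per gene, other variance models and weights, the replicate block, fewer arrays, and SAM (the method the study used, coded anew here) over all 70 label assignments. Slides as a block were not run, since the file headers give no slides. Correlations used exact permutation in scipy 1.17.1, and figures matplotlib 3.10.9. Promoter windows are those of RefSeq for GRCm38.p6.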

Additional observations from a re-analysis of the deposited data

Results flagged for a closer look

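Of 16 groups of 4 arrays tested (8 probes in both groups), 1 held an array far from the others by Dixon's criterion, and chance gives about 1 in 20. In Egfr probe ILMN_3128725, AAV-GFP replicate 3 had a normalized log2 signal of 13.83, against 13.26 in the nearest of the other control arrays. The ratio of this gap to the group's range passed the critical value narrowly. Without that array the log2 difference of this probe was 0.51, against 0.35 with it, and no adjusted p in limma passed in either case.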

How the results depend on the processing

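No member probe was called in any alternative, and the 5 Egfr probes and Met stayed positive and Gab1 negative in all that measured them. The paper's own SAM analysis lists Egfr as higher after Gata4 excision, with RT-qPCR and GATA4 occupancy reported beside it. The SAM coded here did not reproduce that call, and the reason was not tested. With 1 array left out the log2 difference ran between 0.11 and 0.59 for ILMN_1241496, 0.63 and 1.11 for ILMN_2614432, 0.26 and 0.60 for ILMN_2693922, 0.14 and 0.49 for ILMN_3052260, 0.20 and 0.51 for ILMN_3128725, 0.34 and 0.64 for Met, and -0.32 and -0.0069 for Gab1. The Grb2 sign turned under cyclic loess (-0.027), and when arrays were left out, to -0.17 for AAV-Cre replicate 3, -0.069 for AAV-GFP replicate 1, -0.13 for both Xist arrays (AAV-GFP replicates 1 and 4) and -0.31 for AAV-Cre replicates 3 and 4 together. With 1 array left out it ran between -0.17 and 0.20. Among named pathway genes the sign turned for Nrg1 (-0.026 without AAV-Cre replicates 3 and 4), Timp3 (-0.14 in the same setting), Adam17 (0.015 under 75th percentile scaling), Map2k2 (-0.00082 without the Xist arrays) and Rhbdf1 (-0.069 under cyclic loess, -0.32 without AAV-Cre replicates 3 and 4). Leaving out 1 array gave -0.073 to 0.35 for Timp3, -0.15 to 0.066 for Adam17, -0.11 to 0.18 for Rhbdf1 and -0.28 to 0.023 for Rras. Their main values were smaller than their standard errors, except for Map2k2 and Nrg1.

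The count of called probes, 1 in the main setting, was 2 without background correction, 2 with an offset of 50, 2 under 75th percentile scaling, 2 with trend and robust variance, 2 with array weights, 3 in the authors' table, 0 with detection in all 8 arrays (where an unadjusted p under 0.05 was reached by 850 higher and 493 lower probes), 9 by SAM and 196 by SAM on the authors' table, and 1 to 10 with 1 array left out (10, 4 and 2 for AAV-GFP replicate 2, AAV-Cre replicate 1 and AAV-GFP replicate 3). Probes at an unadjusted p under 0.05 numbered 1856 in the main setting, 3402 with no detection filter, 1074 without the Xist arrays, 736 without AAV-Cre replicates 3 and 4, and 1002 to 3147 with 1 array left out (3147, 1086 and 1002 for AAV-Cre replicates 1, 3 and 4). The higher share of these was 55.0%, and 38.2% under cyclic loess, 43.3% with the replicate block and 42.0% without AAV-Cre replicate 2. The cause was not tested. The count of probe pairs past the threshold was 0 in each setting, but since 6 of 10 pairs would have to reach the smallest exact p together, nothing about stability is read from it. Same-numbered arrays deviated together with correlations of 0.19, 0.068, 0.017 and 0.13, and 5 of 8 arrays correlated best with their own number. Numbers were not taken as pairs in the main fit, because the methods state no pairing of the arrays. For RT-qPCR the paper used a paired t test. Whether same-numbered arrays belong together is unknown here. The replicate block gave 1 called probe and 2078 at an unadjusted p under 0.05. With 4 arrays per group, and a median standard error of 0.21, differences could be missed in bright probes as well as in dim ones such as Grb2. Log2 differences as large as 0.91 (Egfr ILMN_2614432) and -1.70 (Ccnd1 ILMN_2601471) were not called.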
